A study of Mus musculus with 9 samples.

Results

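The genes described here encode the subunits of oxidative phosphorylation, the 5 protein complexes of the inner mitochondrial membrane that oxidize NADH and succinate and make ATP. They were chosen by name, as rows of the deposited gene table whose symbol starts with Nduf and a subunit letter, Uqcr, Cox4 to Cox8 or Atp5, or is Sdha to Sdhd or Cyc1, or marks a protein gene of the mitochondrial genome. The name search found 98 of the 52151 rows of the table, under 83 gene symbols. Of these rows, 83 held a known transcript (35 for complex I, 4 for complex II, 9 for complex III, 18 for complex IV and 17 for complex V), and 15 held only transcripts that the authors assembled. None of the 98 rows was a gene of the mitochondrial genome, so the 13 protein genes encoded there were not analysed here and no ratio of mitochondrial to nuclear genes is given. A mean of at least 0.5 FPKM (sequenced fragments scaled to transcript length and to the fragments of the library) was reached by 75 rows, 35, 4, 8, 12 and 16 for complexes I to V, and these 75 genes were tested in each comparison.

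Livers of pair-fed (PF) mice, of alcohol-fed (AF) mice and of alcohol-fed mice injected with MNA were compared by RNA sequencing after removal of ribosomal RNA, with 3 libraries per group. Feeding lasted 5 weeks, with alcohol in the liquid (Lieber-DeCarli) diet of the AF mice and an alcohol-free diet of equal calories for the PF mice. The mice of the third group received the alcohol diet and a daily intraperitoneal injection of MNA at 50 mg/kg. MNA is not spelled out in the sample labels. The labels give an age of 8 weeks for every sample and the strain C57BL/6 for PF and AF, and write C57BL/7, C57BL/8 and C57BL/9 for the 3 MNA samples. The methods describe male C57BL/6J mice, alcohol raised in steps over the feeding weeks, and a fast before the livers were taken. No injected control group is among the samples used here, so MNA and the injection cannot be told apart. No label states that the 3 libraries of a group came from separate animals, and p-values then measure only the spread between these libraries.

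Oxidative phosphorylation passes electrons from NADH through complex I, and from succinate through complex II, to ubiquinone, then through complex III and cytochrome c to complex IV, where oxygen is reduced. Complexes I, III and IV pump protons, and complex V, the ATP synthase, uses the gradient. Hepatocytes are rich in mitochondria and also oxidize ethanol, a route that delivers NADH to this chain. Several muscle and heart forms of complex IV subunits have separate genes, so liver is known for the other form of each pair.

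The 8 markers of hepatocytes summed to 16560 FPKM in AF replicate 2 and to between 18810 and 24430 FPKM in the other libraries, and the 4 muscle markers found in the table to at most 0.03 FPKM. Summed endothelial markers were 22.7 to 29.5 FPKM in PF, 30.5 to 43.2 in AF and 36.9 to 40.3 in AF with MNA, macrophage markers 45.6 to 50.9, 28.5 to 65.4 and 53.2 to 69.5, and stellate cell markers 28.0 to 30.6, 25.8 to 36.3 and 27.6 to 38.9. Of the 7 macrophage markers tested, 5 had a higher mean with MNA than in PF and 2 a lower one. Lyz2 had 6.17 to 17.0 FPKM in PF and 22.1 to 27.0 with MNA, and Clec4f 11.7 to 15.8 and 10.1 to 12.5. Erythroid markers summed to 650 FPKM in AF replicate 2 and to between 286 and 450 FPKM elsewhere. Markers of brown fat summed to 29.2 to 53.3 FPKM in PF, 4.06 to 5.83 in AF and 4.97 to 18.4 in AF with MNA, with Elovl3, a fatty acid elongase, as the highest of them (40.7 FPKM in PF against 2.93 in AF, adjusted p = 0.00730 in limma). That sum is mostly Elovl3 in PF. Pparg went the other way, with 1.08 to 1.55 FPKM in PF, 1.60 to 1.88 in AF and 1.58 to 2.04 with MNA. Cidea did not exceed 0.08 FPKM. Lymphocyte markers summed to at most 2.51 FPKM and bile duct markers to at most 9.12 FPKM. Also past the threshold of the methods defined below, each in a comparison with PF, were Tat, Marco and Lyz2 (higher) and Alas2 and Ighm (lower). Alas2, an erythroid marker, had 37.2 to 43.3 FPKM in PF and 6.66 to 18.2 in AF. Tat, a hepatocyte marker, was highest in AF replicate 2 (581 FPKM), the library with the lowest hepatocyte sum. The part of these markers in the results was not tested, and in bulk liver fewer cells of a type and less RNA per cell cannot be told apart. The gene table gives no counts. The depth of the libraries, recovered from the circular RNA table, differed by up to 1.42-fold. Assembled transcripts inside introns summed to 9433 FPKM in AF replicate 3 and 8934 FPKM in AF with MNA replicate 1, against 2477 to 4937 FPKM in the other libraries. Libraries AF replicate 2 and AF with MNA replicate 2 stood apart for the members, as described with the values per library.

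Promoters are shown for 4 members to which the results return. Each holds 250 bases before the start of the gene and the first 30 bases from it, on the minus strand, from RefSeq (GRCm38.p6). Capitals mark matches to an NRF1-type motif (GCGCA, any base, then GCGC) or to an ERR-type motif (TNAAGGTCA), read on either strand. NRF1 and the estrogen-related receptors (ERR) are transcription factors known for regulating mitochondrial genes. Atp5g3 had the lowest p of all members for AF with MNA against AF, Ndufs6 the third lowest, Cox7a2 the lowest for AF with MNA against PF, and Ndufb4 held the most matches. The windows lie at chr2:73911297-73911576 (Atp5g3), chr13:73328453-73328732 (Ndufs6), chr16:37654339-37654618 (Ndufb4) and chr9:79759824-79760103 (Cox7a2).
Atp5g3: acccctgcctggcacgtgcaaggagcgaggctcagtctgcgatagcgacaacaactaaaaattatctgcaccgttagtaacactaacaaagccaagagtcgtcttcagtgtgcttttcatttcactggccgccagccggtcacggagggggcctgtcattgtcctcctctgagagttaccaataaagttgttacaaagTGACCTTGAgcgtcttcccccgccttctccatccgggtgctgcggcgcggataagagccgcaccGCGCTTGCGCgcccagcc
Ndufs6: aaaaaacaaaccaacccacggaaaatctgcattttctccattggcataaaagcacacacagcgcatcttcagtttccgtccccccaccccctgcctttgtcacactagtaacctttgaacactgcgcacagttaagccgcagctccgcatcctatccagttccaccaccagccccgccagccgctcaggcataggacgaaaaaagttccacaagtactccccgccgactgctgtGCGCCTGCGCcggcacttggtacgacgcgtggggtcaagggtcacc
Ndufb4: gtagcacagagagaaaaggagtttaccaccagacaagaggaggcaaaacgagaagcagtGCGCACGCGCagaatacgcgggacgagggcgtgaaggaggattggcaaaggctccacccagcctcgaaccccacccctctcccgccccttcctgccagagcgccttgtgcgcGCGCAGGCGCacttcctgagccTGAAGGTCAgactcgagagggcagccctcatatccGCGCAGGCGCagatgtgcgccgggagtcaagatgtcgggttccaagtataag
Cox7a2: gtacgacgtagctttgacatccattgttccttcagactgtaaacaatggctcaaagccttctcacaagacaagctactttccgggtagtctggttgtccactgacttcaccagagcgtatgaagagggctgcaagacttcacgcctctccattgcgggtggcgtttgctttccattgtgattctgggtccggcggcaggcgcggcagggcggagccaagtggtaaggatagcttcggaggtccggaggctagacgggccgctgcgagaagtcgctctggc

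RefSeq promoters of 300 bases, 250 before and 50 after the start, were matched to 64 of the 75 members by symbol. The NRF1-type motif was found in 17 of 64 members (26.6%) and in 7.17% of the 17492 coding genes with a promoter in the table. The YY1-type motif AAGATGGC was found in 11 members (17.2%) against 3.57% of coding genes, and Ndufs6 holds one in the last bases of the 300-base window that are not shown. All motifs were searched on both strands. The ERR-type motif was found in 3 members, Atp5g3, Ndufb4 and Sdhd (4.69% against 1.19%), and the ETS-type motif CCGGAAGT in 5 (7.81% against 5.69%). No motif of these 4 was found in the window of Cox7a2. Members with an NRF1-type motif had a median log2 difference of 0.13 for AF with MNA against AF and those without one 0.17. For the YY1-type motif the medians with and without it were 0.21 and 0.15 in that comparison, -0.16 and -0.01 for AF against PF, and -0.02 and 0.17 for AF with MNA against PF. These differences between members with and without a motif were not tested. A match describes letters in a window and is not a binding site.

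Among the genes of complex I, the levels ran from 2.72 FPKM (Ndufa11) to 72.8 FPKM (Ndufb9) as means over the 9 libraries, with a median over the 35 genes of 12.2 FPKM. For complex II the median was 45.3, for complex III 40.2, for complex IV 48.0 and for complex V 12.6 FPKM. Judged from 30 entries made only of lncRNA transcripts, an entry of several transcripts appears to be divided by the length of all their exons together. No member entry was checked. An entry with many or long transcripts would then be listed lower, and levels between genes and complexes are not a measure of subunit ratios. The 12 tested members with 1 transcript had a median of 45.4 FPKM, the 40 with 2 to 5 transcripts 18.4 FPKM and the 23 with 6 or more transcripts 12.5 FPKM. The entries of Atp5o, Ndufb2 and Ndufb8 also hold transcripts of another coding gene (Donson, Adck2 and Sec31b). The known transcripts of the entry named Atp5sl belong to Dmac2 in GENCODE M21, the current name of that gene, whose product is known for complex I assembly and not as an ATP synthase subunit, and it is counted with complex V by its name alone. Further, 16 members have a processed pseudogene at least 95% identical over at least 80% of the coding sequence, which could share their reads.

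The highest entry of all was Atp5a1, the alpha subunit of the F1 head of ATP synthase, with 173, 176 and 210 FPKM in PF, 184, 169 and 181 in AF and, with MNA, 181, 235 and 195. Atp5b, the catalytic beta subunit, had 142, 149 and 139 FPKM in PF, 151, 128 and 136 in AF and, with MNA, 146, 171 and 152. The groups overlapped for both genes. Atp5c1, the gamma subunit of the stalk, ranged from 43.5 to 56.7 FPKM with overlapping groups. Cox7c, a small subunit of complex IV, ranged from 80.4 to 102 FPKM over the 9 libraries. Sdha, the flavoprotein of complex II, ranged from 63.3 to 88.4 FPKM and Sdhb, its iron-sulfur subunit, from 28.1 to 40.7 FPKM, and both had overlapping groups. Uqcrfs1, the Rieske iron-sulfur protein of complex III, ranged from 53.6 to 70.5 FPKM, and Uqcrc1, a core protein of that complex, from 43.4 to 58.3 FPKM. In complex I the highest after Ndufb9 was Ndufa8, at 45.7 to 56.9 FPKM.

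The liver and muscle forms of complex IV subunits were far apart in all 9 libraries. Cox6a1 ranged from 78.7 to 166 FPKM, while Cox6a2, the heart and muscle form, was listed at 0 in 8 libraries and at 0.07 FPKM in AF replicate 1. Cox7a2 ranged from 28.6 to 65.7 FPKM and its heart and muscle form Cox7a1 from 0.10 to 0.85 FPKM. Cox8a ranged from 58.9 to 194 FPKM and Cox8b, its muscle form, did not exceed 0.07 FPKM. Cox4i2, the lung form of subunit 4, did not exceed 0.14 FPKM, where Cox4i1 had 46.0 to 74.7 FPKM. Ndufa4l2, a relative of the complex IV subunit Ndufa4 known from hypoxia, had 0.14 to 0.90 FPKM. These 5 low genes, Cox6b2 (0.04 to 0.48 FPKM) and the pseudogene rows Atp5l2-ps and Uqcrh-ps1 are the 8 rows with a known transcript that were below 0.5 FPKM on average and were not tested.

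Few subunit genes differed between AF and PF. Of the 75 members, 4 (5.33%) had an unadjusted p under 0.05, against 11.7% of the 12268 genes tested. Ndufa12 and Atp5k were higher in AF (2.67% of members, against 5.1% of all genes), and Uqcrq and Ndufc1 were lower (2.67%, against 6.58%). None passed the threshold of the methods, an unadjusted p under 0.05 with a log2 difference above 1 or below -1, which 4.30% of all tested genes did, and none had an adjusted p under 0.05 in limma (0.326% of all genes). The median log2 difference of the members was -0.04, and that of all tested genes -0.03. AF and PF did not overlap for 1 member that was higher in AF (1.33%, against 8.18% of all genes) and for 7 that were lower (9.33%, against 10.1%).

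Uqcrq, a small subunit of complex III named for ubiquinone binding, had 47.3, 37.8 and 40.5 FPKM in PF, 21.7, 34.3 and 26.0 in AF and, with MNA, 35.4, 54.7 and 43.7. All 3 AF libraries were below the 3 PF libraries and below the 3 libraries with MNA. Its mean was 27.4 ± 6.39 FPKM in AF (SD, n = 3) and 41.9 ± 4.89 in PF (log2 difference -0.62, unadjusted p = 0.0175, adjusted p = 0.326 in limma). Ndufc1, an accessory subunit of complex I, had 5.04, 5.18 and 4.93 FPKM in PF and 2.86, 4.56 and 3.38 in AF (log2 difference -0.49, unadjusted p = 0.0376). The p of Ndufc1 was above 0.05 with any single library left out other than AF replicate 2 (log2 differences -0.69 to -0.35 over the 6), and also with libraries scaled to the same median and with all 9 libraries in the fit. That of Uqcrq was above 0.05 without AF replicate 1 or PF replicate 1 (-0.81 to -0.47). In AF with MNA Ndufc1 had 3.01, 5.74 and 5.68 FPKM, a range that overlapped both other groups. Ndufs4, an accessory subunit of complex I, had 21.7, 22.7 and 17.8 FPKM in PF, 19.3, 15.3 and 15.7 in AF and, with MNA, 19.1, 21.2 and 21.7, with overlapping groups (AF against PF, log2 difference -0.31, unadjusted p = 0.101).

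Ndufa12, an accessory subunit of complex I, had 5.06, 3.51 and 7.67 FPKM in PF and 13.4, 6.85 and 10.2 in AF, and the lowest AF library was within the PF range (log2 difference 0.91, unadjusted p = 0.0371). With AF replicate 1, AF replicate 3, PF replicate 1 or PF replicate 2 left out, p was above 0.05. Atp5k, the e subunit of ATP synthase, was a low entry at 1.43, 1.10 and 1.72 FPKM in PF and 1.93, 2.54 and 2.37 in AF (log2 difference 0.69, unadjusted p = 0.0206), with a p above 0.05 without AF replicate 2, AF replicate 3 or PF replicate 2. With a library-size covariate and no moderation, none of Uqcrq, Ndufc1, Ndufa12 and Atp5k had an unadjusted p under 0.05. Both genes (Ndufa12 and Atp5k) are among the 16 with a processed pseudogene copy. Ndufs7, a core subunit of complex I, did not overlap between the groups, with 12.5, 14.0 and 13.2 FPKM in PF and 11.7, 9.51 and 12.3 in AF (unadjusted p = 0.133).

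Most subunit genes had a higher mean in AF with MNA than in AF. This held for 63 of 75 members (84.0%), against 51.2% of the 12214 genes tested, with a median log2 difference of 0.17 against 0.01 for all genes. For 9 members (12.0%, against 2.91% of all genes) the unadjusted p was under 0.05 with the higher level in AF with MNA, and for no member with the lower level (2.30% of all genes). These 9 were Atp5g3, Uqcrq, Ndufs6, Ndufb6, Ndufa2, Ndufa4, Cox7a2, Cyc1 and Ndufs3. None had an adjusted p under 0.05 in limma (0.0491% of all genes did), and none passed the threshold of the methods (1.98%). The groups did not overlap for 14 members that were higher in AF with MNA (18.7%, against 5.53% of all genes) and for none that was lower (4.58%). The AF libraries enter both this comparison and that of AF with PF, so the values of the 2 comparisons are not independent.

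**Figure D1:**
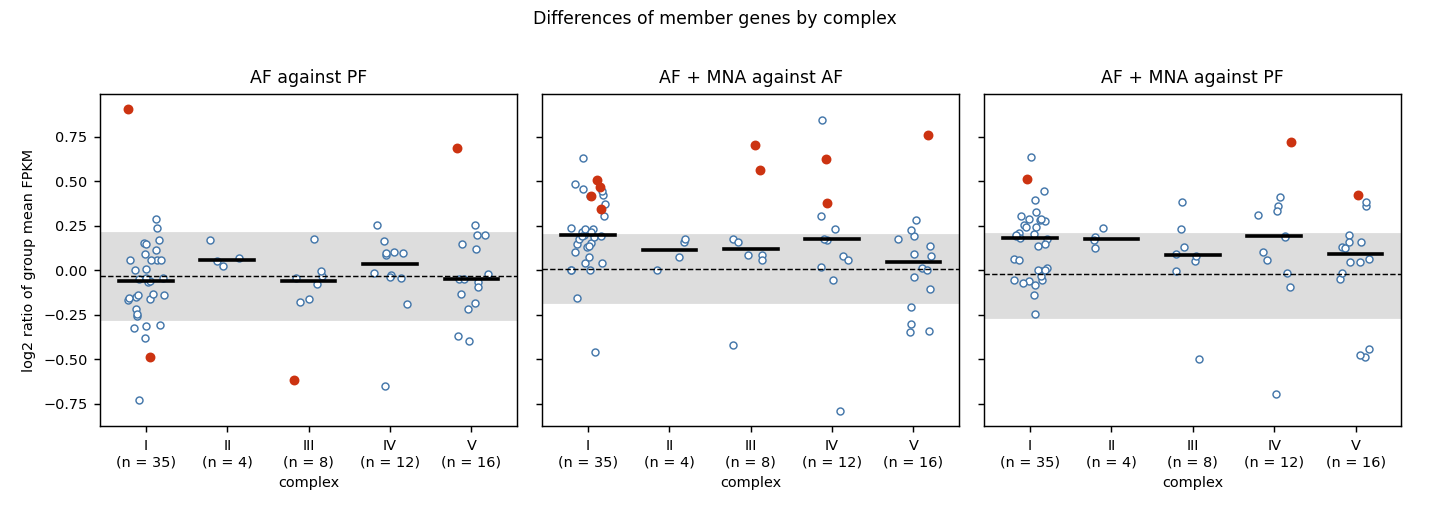
Log2 ratio of the group mean FPKM (y axis) of the 75 member genes by complex (x axis) in the 3 comparisons; each circle is a gene, filled where the unadjusted p is under 0.05, thick bars are medians of a complex, the dashed line is the median of all tested genes and the grey band their middle 50%. For AF + MNA against AF, the median of each complex lies above that of all genes, from 0.04 for complex V to 0.20 for complex I.

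By complex, the median log2 difference between AF with MNA and AF was 0.20 for complex I (32 of 35 genes higher), 0.12 for complex II (4 of 4), 0.12 for complex III (7 of 8), 0.17 for complex IV (10 of 12) and 0.04 for complex V (10 of 16, or a median of 0.08 and 10 of 15 without Atp5sl). The 5 genes of the F1 head and stalk of ATP synthase had a median of 0.09 and the 3 genes of its c ring 0.22. Which complex a gene belongs to was not tested as a difference.

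Atp5g3 had the lowest p of the members. It is one of 3 genes that encode the same mature c subunit, the ring of ATP synthase that turns with the proton flow, and lies on chromosome 2 at 73908447 to 73911326 on the minus strand (GRCm38, GENCODE M21). Its level was 20.5, 19.6 and 22.2 FPKM in AF, 29.6, 39.0 and 37.0 in AF with MNA, and 20.8, 33.8 and 27.5 in PF. Every library with MNA was above every AF library, and the PF libraries spread over the gap. The means were 35.2 ± 4.98 and 20.8 ± 1.33 FPKM (SD, n = 3; log2 difference 0.76, unadjusted p = 0.00206, adjusted p = 0.720). With each of the 6 libraries left out in turn the unadjusted p stayed under 0.05, with log2 differences of 0.68 to 0.87.

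The other genes of the c ring had smaller differences between AF with MNA and AF. Atp5g1 had 9.21, 8.87 and 12.3 FPKM in AF against 9.81, 13.1 and 12.6 in AF with MNA, and 9.17, 8.19 and 9.07 in PF. The groups AF and AF with MNA overlapped, while all 3 MNA libraries were above the 3 PF libraries (log2 difference 0.42 against PF, unadjusted p = 0.0274). Atp5g2 ranged from 10.1 to 14.4 FPKM over all libraries, with overlapping groups. Atp5f1, the b subunit of the peripheral stalk, had 30.9, 28.8 and 32.01 FPKM in AF, 35.9, 38.2 and 37.4 in AF with MNA, and 32.9, 37.1 and 36.7 in PF. All its AF libraries were below all other libraries, by small differences (limma, AF with MNA against AF, log2 difference 0.28 and unadjusted p = 0.0506, AF against PF, -0.22 and 0.129).

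In complex III, Uqcrq (values above) was higher in AF with MNA than in AF (44.6 ± 9.68 against 27.4 ± 6.39 FPKM, log2 difference 0.70, unadjusted p = 0.0214), and it lies on chromosome 11 at 53427922 to 53430831. Cyc1, cytochrome c1, which hands electrons to cytochrome c, had 30.1, 27.8 and 47.9 FPKM in AF, 45.3, 58.3 and 52.8 in AF with MNA, and 31.0, 44.2 and 44.6 in PF. AF replicate 3 was within the range of the MNA libraries (log2 difference 0.56, unadjusted p = 0.0420). The core protein Uqcrc2 had 52.0, 51.9 and 53.2 FPKM in AF against 56.4, 58.7 and 59.9 in AF with MNA, without overlap but with a log2 difference of only 0.16.

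Complex I held 4 of the 9 genes. Ndufs6, a subunit of the NADH-oxidizing arm, had 36.6, 47.3 and 50.7 FPKM in AF, 61.8, 68.7 and 55.4 in AF with MNA, and 57.0, 43.9 and 49.9 in PF (AF with MNA against AF, log2 difference 0.47, unadjusted p = 0.0315). Its MNA libraries did not overlap the AF libraries, while PF replicate 1 was above one of them. Ndufa2, also of that arm, had 10.4, 8.00 and 10.9 FPKM in AF against 13.3, 13.6 and 12.2 in AF with MNA, and 11.7, 9.39 and 11.2 in PF (log2 difference 0.42, unadjusted p = 0.0324). Ndufs3, a core subunit, had 8.87, 7.51 and 8.70 FPKM in AF against 9.80, 10.3 and 11.8 in AF with MNA (log2 difference 0.34, unadjusted p = 0.0491). The unadjusted p of Ndufs3 was above 0.05 whichever of the 6 libraries was left out. Ndufb6, an accessory subunit of the membrane arm, overlapped between the groups, with 16.0, 14.7 and 22.4 FPKM in AF against 22.4, 26.3 and 26.9 in AF with MNA (log2 difference 0.51, unadjusted p = 0.0321).

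In complex IV, Cox7a2 had 33.5 to 39.4 FPKM in PF, 55.1, 28.6 and 32.8 in AF and, with MNA, 55.7, 65.7 and 58.1. All 3 MNA libraries were above all PF libraries, and AF replicate 1 was close to them while the other AF libraries were close to PF. The log2 difference was 0.62 against AF (unadjusted p = 0.0362) and 0.72 against PF (59.8 ± 5.22 against 36.3 ± 2.95 FPKM, unadjusted p = 0.000914, adjusted p = 0.101). The difference from PF kept an unadjusted p under 0.05 with each library left out in turn (log2 difference 0.65 to 0.78), and that from AF kept it in 1 of 6 such fits. Ndufa4, first named for complex I and a subunit of complex IV, had 26.3, 31.4 and 30.7 FPKM in AF against 34.7, 38.3 and 41.8 in AF with MNA, and 24.3, 31.3 and 33.9 in PF (log2 difference 0.38 against AF, unadjusted p = 0.0334).

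All 9 differences stayed above 0 with any 1 of the 6 libraries left out, with log2 differences of 0.53 to 0.90 for Uqcrq, 0.42 to 0.85 for Cyc1, 0.34 to 0.56 for Ndufs6, 0.30 to 0.51 for Ndufa2, 0.30 to 0.44 for Ndufa4, 0.39 to 0.71 for Ndufb6, 0.45 to 0.96 for Cox7a2 and 0.26 to 0.40 for Ndufs3. The unadjusted p, then from 2 against 3 libraries, stayed under 0.05 in all 6 fits for Atp5g3, in 3 for Ndufs6 and Ndufa4, in 2 for Uqcrq, Cyc1, Ndufa2 and Ndufb6, in 1 for Cox7a2 and in 0 for Ndufs3. Without AF with MNA replicate 2 it was under 0.05 for Atp5g3 and for none of the other 8, and the share of all genes with a higher level at that p was 1.90% there against 2.91% with all libraries. It was also above 0.05 without AF with MNA replicate 1 for Ndufs6, Ndufa2, Cox7a2 and Ndufs3, without AF with MNA replicate 3 for all but Atp5g3 and Ndufs6, without AF replicate 1 for Ndufs6, Ndufa4, Uqcrq, Cyc1, Ndufb6 and Ndufs3, without AF replicate 2 for Cyc1, Ndufa2, Ndufb6, Cox7a2 and Ndufs3, and without AF replicate 3 for Uqcrq, Cox7a2 and Ndufs3. With a library-size covariate and no moderation, the p of 2 of the 9, Atp5g3 and Ndufa2, was under 0.05.

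**Figure D2:**
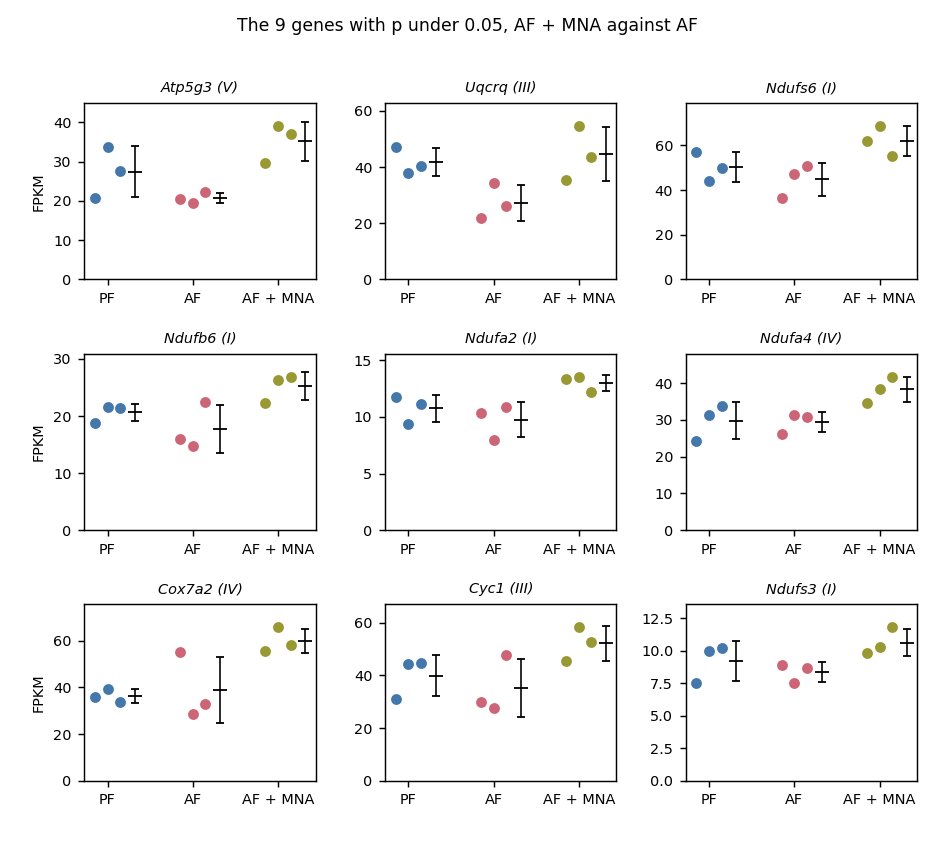
FPKM (y axis, from 0) of the 9 genes with an unadjusted p under 0.05 for AF + MNA against AF, in each PF, AF and AF + MNA library (x axis; complex in brackets; points are libraries, bars the mean and SD of 3). The MNA libraries lie above all AF libraries except in Ndufb6 and Cyc1, and the AF libraries of Atp5g3 lie at 19.6 to 22.2 FPKM.

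Against PF, AF with MNA had the higher mean for 56 of 75 members (74.7%, against 47.0% of the 12276 genes tested), with a median log2 difference of 0.15 against -0.02. The unadjusted p was under 0.05 for 3 members, all higher in AF with MNA (4.0%, against 6.52% of all genes in that direction), and for none that was lower (7.94% of all genes). Lower members appeared under other settings, with Atp5d and Atp5sl without AF with MNA replicate 1 and Cox7a2l without AF with MNA replicate 2. Atp5sl had 9.27, 9.66 and 7.2 FPKM in PF and 8.42, 5.87 and 4.37 in AF with MNA, with overlapping groups (log2 difference -0.49, unadjusted p = 0.0889). The 3 higher members were Cox7a2, Atp5g1 and Ndufa3, an accessory subunit of complex I with 9.56, 9.67 and 11.8 FPKM in PF and 12.5, 17.1 and 14.8 in AF with MNA (log2 difference 0.51, unadjusted p = 0.0186). For Atp5g1 the p was above 0.05 without AF with MNA replicate 2 or 3 or PF replicate 2 or 3, and for Ndufa3 without AF with MNA replicate 2 or PF replicate 1 or 2. None passed the threshold of the methods (3.89% of all genes) and none had an adjusted p under 0.05 in limma (0.432%). The groups did not overlap for 10 members that were higher in AF with MNA (13.3%, against 9.54%) and for none that was lower (11.9%). The MNA libraries enter this comparison and the one with AF.

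The difference of the members as a set was carried unevenly by the libraries. The median log2 ratio of a member to its mean over the 9 libraries, less the same median over all 12252 genes of at least 0.5 FPKM, was -0.05, -0.01 and -0.03 in PF, -0.01, -0.12 and 0.00 in AF and, with MNA, 0.02, 0.19 and 0.08. AF replicate 2 was the lowest and AF with MNA replicate 2 the highest, while the other AF libraries were level with PF and AF with MNA replicate 1 was little above. AF replicate 2 held the lowest value of 38 of the 75 members (50.7%) and of 25.1% of all genes. AF with MNA replicate 2 held the highest value of 33 members (44.0%) and of 9.30% of all genes. Summed FPKM of the 75 members was 2381, 2314 and 2443 in PF, 2438, 2050 and 2381 in AF and, with MNA, 2402, 2810 and 2588, so the groups overlapped.

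Left out in turn, these 2 libraries changed the counts. Without AF replicate 2, 46 of 75 members (61.3%, against 43.4% of all genes) were higher in AF with MNA than in AF, with a median log2 difference of 0.08 against -0.05 for all genes, and 4 were higher (5.33%, against 2.82% of all genes) and 1 (Ndufb4) was lower (1.33%, against 3.42%) with an unadjusted p under 0.05. Without AF with MNA replicate 2, 58 members (77.3%, against 51.9%) were higher, with a median of 0.11 against 0.01, and Atp5g3 was the 1 member that was higher and Cox7a2l the 1 that was lower with an unadjusted p under 0.05 (1.33% each, against 1.90% and 1.44% of all genes). Without AF with MNA replicate 3, 2 members were higher at that p (2.67%, against 1.82%), and without AF replicate 1 there were 4 (5.33%, against 2.51%). Leaving out AF with MNA replicate 1 or AF replicate 3 gave 8 (10.7%, against 3.0% and 4.95%). For AF against PF, the median was 0.03 without AF replicate 2 (0.02 for all genes) and -0.10 without AF replicate 3 (-0.08 for all genes), so its sign rested on AF replicate 2. When every library was scaled to the same median, 61 of 75 members were still higher in AF with MNA than in AF (6021 of the 12214 genes were) and the median was 0.16.

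**Figure D3:**
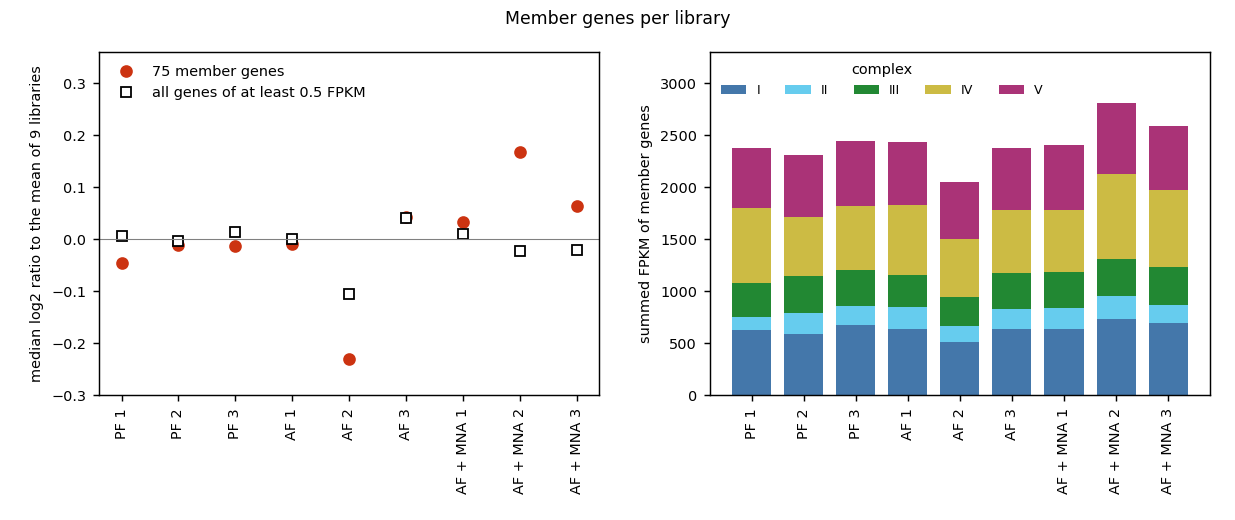
Left, median over 75 member genes and over all genes of at least 0.5 FPKM of the log2 ratio to the mean of 9 libraries (y axis), per library (x axis); right, summed FPKM of the members per library, stacked by complex. AF 2 has the lowest member median and the lowest sum (2050), and AF + MNA 2 the highest of both (sum 2810).

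By complex, the summed FPKM of complex I was 629, 584 and 674 in PF, 637, 516 and 638 in AF and, with MNA, 640, 736 and 696. All 3 MNA sums were above the AF sums, by as little as 640.3 against 637.8. For complex III the sums came to 321, 359 and 347 in PF, 314, 287 and 350.1 in AF and, with MNA, 350.2, 359 and 371. There the highest AF sum was again just below the lowest with MNA. Complex V gave 585, 604 and 627 in PF, 607, 545 and 600 in AF and, with MNA, 620, 687 and 615. For complexes II and IV the groups overlapped.

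Some members varied more between libraries of one group than between groups. Among the 65 members of at least 5 FPKM, the median ratio of the highest to the lowest library was 1.70, near the 1.77 of all 3607 genes at that level. A ratio above 3 was found for 7 of the 65 members (10.8%), against 19.4% of all such genes. Uqcr10, a small subunit of complex III, had 3.44 FPKM in AF with MNA replicate 2 and 35.9 to 45.4 FPKM in the other 8 libraries, a 13.2-fold range. That library was the highest for many other subunits.

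Sdhd, a membrane anchor of complex II, was at 15.4 FPKM in PF replicate 1, 21.8 in AF replicate 2 and 21.03 in AF with MNA replicate 3, and at 66.2 to 90.7 FPKM in the other 6 libraries. Each group thus had 1 library far below its other libraries. Ndufa6, an accessory subunit of complex I, had 77.4, 28.8 and 71.7 FPKM in PF, 56.1, 17.7 and 33.7 in AF and, with MNA, 28.6, 57.1 and 64.5. Cox8a had 186 FPKM in PF replicate 1 and 194 FPKM in AF with MNA replicate 3, against 58.9 to 105 FPKM in the other libraries. The tested entries of Ndufa6, Sdhd, Cox8a and Ndufb3 each hold a single transcript. Ndufa6 and Ndufb3 each have a second row, made only of an assembled transcript, which did not exceed 1.48 FPKM and 1.86 FPKM.

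Cox7a2l, which joins complexes III and IV into supercomplexes, had 44.5, 47.3 and 48.2 FPKM in PF, 58.3, 46.1 and 45.3 in AF and, with MNA, 23.8, 48.4 and 14.2. The lower 2 MNA libraries were below all others and the third was within the range of PF and AF (log2 difference -0.79 against AF, unadjusted p = 0.0610). Without AF with MNA replicate 2 the difference passed the threshold of the methods (log2 difference -1.39, unadjusted p = 0.0022). With all 9 libraries in the fit, the unadjusted p for AF with MNA against AF was 0.0312 in limma. Atp5d, the delta subunit of the F1 stalk, was at 28.6 FPKM in AF replicate 3, 28.2 in AF with MNA replicate 2 and 28.1 in AF with MNA replicate 3, and at 52.7 to 64.5 FPKM in the other 6 libraries. Ndufb3 had 13.6 FPKM in AF with MNA replicate 2 and 4.39 to 7.93 FPKM elsewhere.

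**Figure D4:**
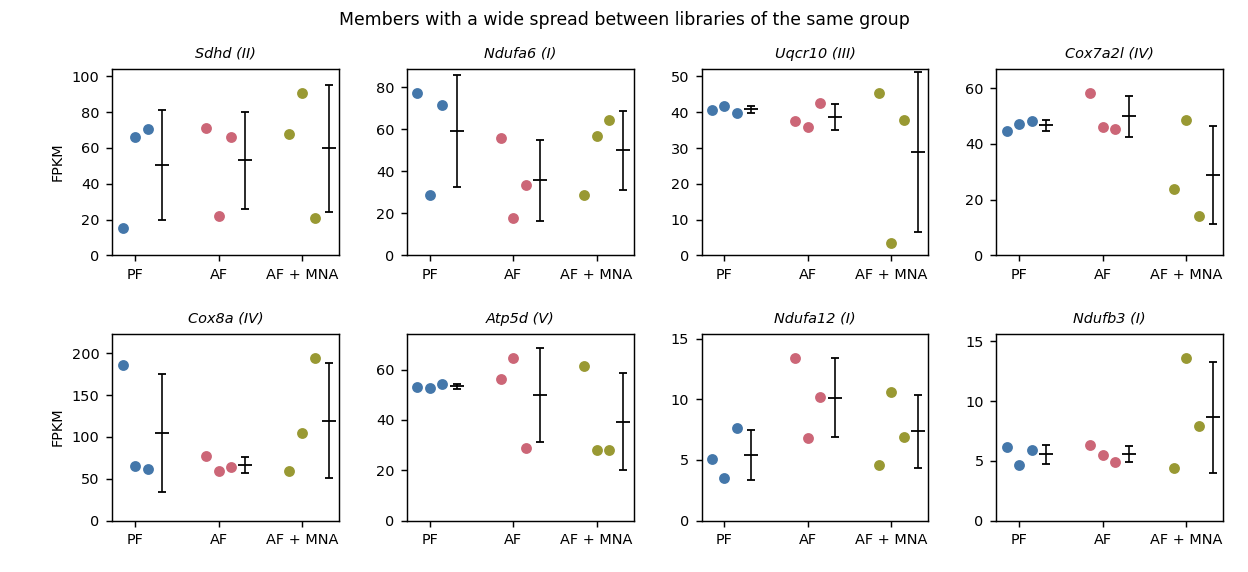
FPKM (y axis, from 0) in each PF, AF and AF + MNA library (x axis; points are libraries, bars the mean and SD of 3) of 8 members with a wide spread within groups. Sdhd has 1 low library in every group, Uqcr10 only 1 low library (3.44 FPKM, AF + MNA), and Cox7a2l 2 low libraries, both with MNA.

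The plot of all members by library shows these single values beside the broader pattern of AF replicate 2 and AF with MNA replicate 2.

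**Figure D5:**
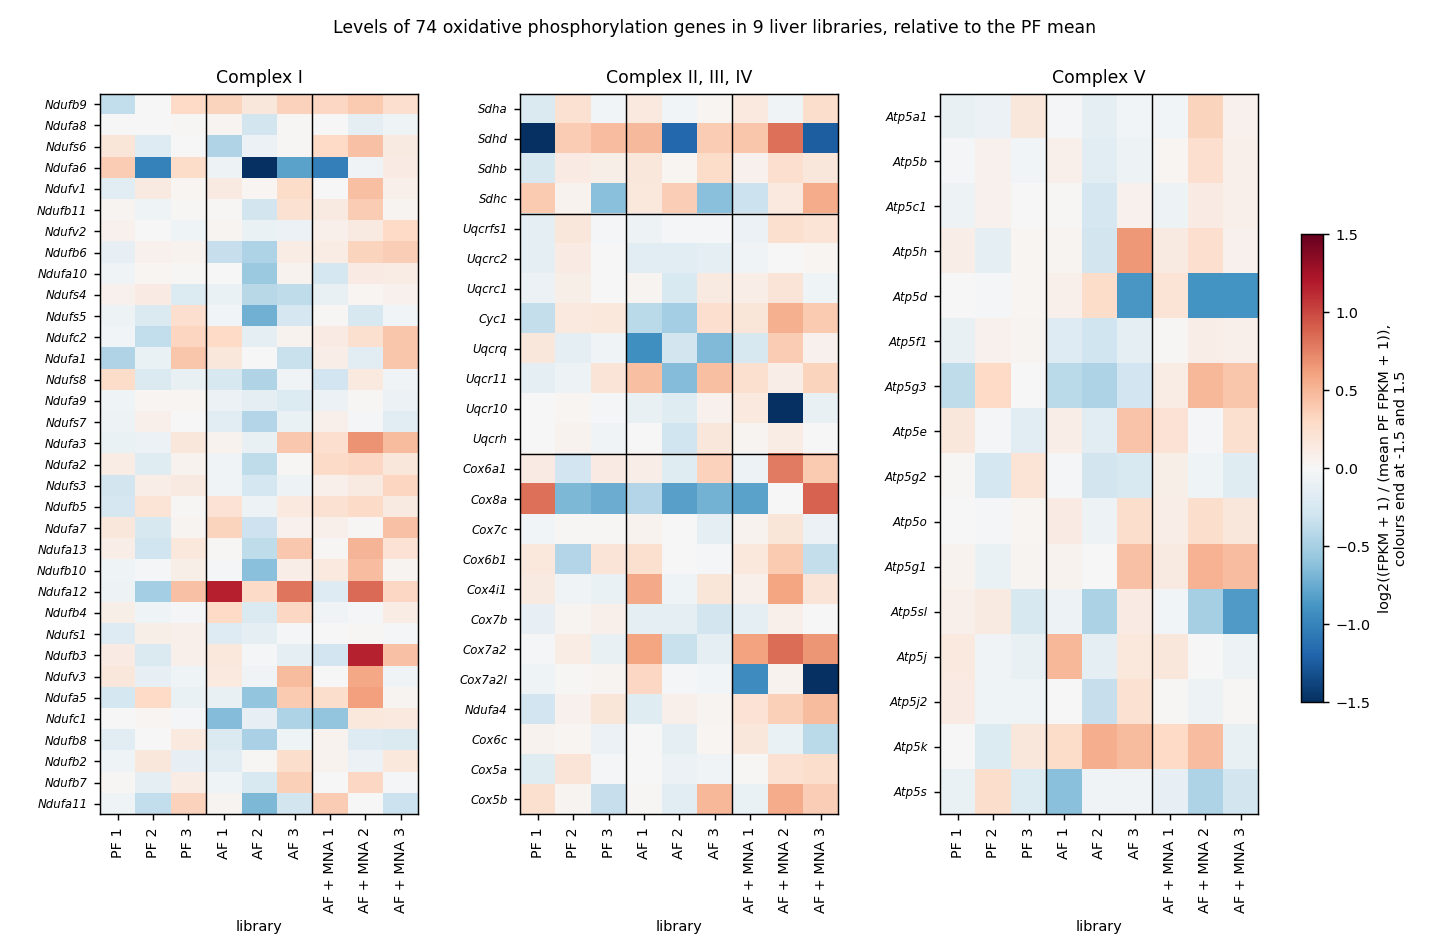
Level of 74 of the 75 member genes (rows, by complex and falling mean level) in the 9 libraries (columns) as log2((FPKM + 1) / (mean PF FPKM + 1)), red above and blue below the PF mean. Most rows are pale, AF 2 is the bluest column and AF + MNA 2 the reddest, and dark single cells include those of Sdhd, Ndufa6, Uqcr10, Cox7a2l, Cox8a and Ndufb3.

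Factors that assemble the complexes, and other genes around the chain, were tested in the same fits. Of 43 tested assembly factors, 1 was higher in AF than in PF at an unadjusted p under 0.05 (2.33%, against 5.1% of all genes) and 4 were lower (9.30%, against 6.58%), with a median log2 difference of -0.12. Between AF with MNA and AF, 2 were higher (4.65%, against 2.91%) and 1 was lower (2.33%, against 2.30%), with a median of 0.02. Between AF with MNA and PF, 1 of 44 was higher (2.27%, against 6.52%) and 7 were lower (15.9%, against 7.94%). Tmem70, needed to assemble ATP synthase, had 9.90, 13.2 and 10.5 FPKM in PF, 2.56, 2.26 and 7.19 in AF and, with MNA, 2.25, 8.95 and 1.81. It was below every PF library in all 6 libraries of alcohol-fed mice (AF against PF, log2 difference -1.48, unadjusted p = 0.00651, adjusted p = 0.229). Coa6, an assembly factor of complex IV, had 1.58, 3.92 and 5.57 FPKM in AF against 1.67, 0.53 and 1.01 in AF with MNA (log2 difference -1.79, unadjusted p = 0.0228), and 3.92, 4.14 and 2.12 FPKM in PF (AF with MNA against PF, -1.67, unadjusted p = 0.00700). Cmc2, a small protein named for complex IV assembly, was a low entry with 0.37, 0.36 and 0.24 FPKM in PF, 0.85, 0.74 and 1.06 in AF and, with MNA, 0.51, 0.87 and 0.82, and its PF libraries were below all others (AF against PF, log2 difference 1.45, unadjusted p = 0.00434). Past the threshold of the methods for AF with MNA against PF were also Tmem70 (log2 difference -1.37), Cmc2 (1.18), Sco1 (-1.34) and Cox14 (-1.40). Uqcc1, which assembles complex III, had 3.54, 3.15 and 3.02 FPKM in PF, 2.31, 2.32 and 2.26 in AF and, with MNA, 2.86, 3.49 and 3.60, with all AF libraries below all others (unadjusted p = 0.0148 against PF and 0.0158 for AF with MNA against AF).

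Of the 17 tested electron carriers and enzymes that feed the chain, Etfdh, which passes electrons from fatty acid oxidation to ubiquinone, and Gpd2, which does so from glycerol phosphate, were lower in AF than in PF (11.8%, against 6.58% of all genes) and higher in AF with MNA than in AF (11.8%, against 2.91%) at an unadjusted p under 0.05. Etfdh had 27.4, 24.7 and 23.4 FPKM in PF, 18.5, 22.7 and 16.7 in AF and, with MNA, 23.6, 24.9 and 29.2. The 3 AF libraries were below the other 6. Cycs, cytochrome c, was at 1.89 FPKM in AF replicate 1 and 2.32 FPKM in AF with MNA replicate 2, against 7.34 to 10.8 FPKM in the other libraries, and had no unadjusted p under 0.05. Of the 20 tested genes around the tricarboxylic acid cycle 1 (5.0%, against 5.1% of all genes) was higher in AF than in PF at an unadjusted p under 0.05, the isocitrate dehydrogenase Idh2 (17.8, 18.8 and 16.6 FPKM in PF, 32.2, 26.4 and 30.7 in AF, log2 difference 0.75, unadjusted p = 0.00122). None had an unadjusted p under 0.05 between AF with MNA and AF, against 5.22% of all genes in either direction. Between AF with MNA and PF, 3 of the 20 were higher at that p (15.0%, against 6.52%). Pdk4, the kinase that inhibits pyruvate dehydrogenase, passed the threshold of the methods for AF with MNA against PF, with 0.40, 0.27 and 0.24 FPKM in PF, 0.76, 23.97 and 1.67 in AF and, with MNA, 3.53, 11.5 and 5.59 (log2 difference 4.50, unadjusted p = 0.000387, adjusted p = 0.0730 in limma). Its highest level was in AF replicate 2. All AF libraries of Pdk4 were also above all PF libraries, without an unadjusted p under 0.05 for AF against PF in limma.

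Ppargc1a, a coactivator of mitochondrial gene expression, had 1.63, 3.13 and 2.54 FPKM in PF, 3.93, 6.84 and 3.16 in AF and, with MNA, 3.90, 1.47 and 2.26 (AF against PF, log2 difference 0.93, unadjusted p = 0.0458). Its highest value was in AF replicate 2, the library with the lowest subunit levels. Gabpb1, a subunit of an ETS factor, was also higher in AF than in PF (unadjusted p = 0.0269), and no other of the 17 tested regulators was (11.8%, against 5.1% of all genes). Between AF with MNA and AF, none was higher (2.91% of all genes) and Pprc1, a relative of Ppargc1a, was lower (5.88%, against 2.30%; log2 difference -0.55, unadjusted p = 0.0214). Gabpb1 and Ppara were higher in AF with MNA than in PF (11.8%, against 6.52%). Nrf1 and Esrra, whose motif types are capitalized in the promoters, had means of 1.29 and 8.70 FPKM in PF, 1.42 and 8.28 in AF and, with MNA, 1.33 and 8.95, without an unadjusted p under 0.05. Of 33 tested genes that maintain or transcribe the mitochondrial genome, 4 were lower in AF than in PF at an unadjusted p under 0.05 (12.1%, against 6.58% of all genes) and 2 were higher in AF with MNA than in AF (6.06%, against 2.91%). Between AF with MNA and PF, 1 was higher (3.03%, against 6.52%) and 2 were lower (6.06%, against 7.94%). Their general factor Tfam had 5.03, 6.06 and 5.51 FPKM in PF and 4.47, 4.71 and 4.47 in AF (unadjusted p = 0.0862).

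Ribosomal protein genes were tested in the same fits. The 72 tested mitochondrial ribosomal proteins had a median log2 difference of 0.02 between AF with MNA and AF, with 38 higher. The 90 tested cytosolic ribosomal proteins had a median of 0.01, with 51 higher. Of all genes, 51.2% were higher. None of either set had an unadjusted p under 0.05, against 2.91% of all genes for higher and 2.30% for lower. For AF against PF, the medians were -0.08 (28 of 72 higher) and 0.09 (74 of 91 higher), against 46.3% of all genes higher. At an unadjusted p under 0.05, 2 mitochondrial ones were then higher (2.78%, against 5.1% of all genes) and 5 lower (6.94%, against 6.58%). Of the 91 cytosolic ones 0 were higher at that p and 1 was lower (1.10%). Between AF with MNA and PF, the medians were -0.06 (33 of 72 higher) and 0.11 (76 of 91 higher), against 47.0% of all genes higher. The subunits had a median of 0.15 there, with 56 of 75 higher. At an unadjusted p under 0.05, 1 mitochondrial one was higher (1.39%, against 6.52%) and 5 were lower (6.94%, against 7.94%). At that p 4 cytosolic ones were higher (4.40%) and 2 lower (2.2%). Past the threshold of the methods were Mrpl57 for AF against PF (log2 difference 1.20, unadjusted p = 0.0321) and Mrps2 for AF with MNA against PF (1.05, unadjusted p = 0.0291). Of the 9 tested carriers, uncouplers and the ATP synthase inhibitor, Atpif1 (the inhibitor, unadjusted p = 0.0485) and Vdac3, a channel of the outer membrane with 5.78 to 6.18 FPKM in PF and 7.51 to 9.09 in AF (unadjusted p = 0.0101), were higher in AF than in PF (22.2%, against 5.1% of all genes). Slc25a20, the carnitine carrier, was lower in AF than in PF (11.1%, against 6.58%) and higher in AF with MNA than in AF (11.1%, against 2.91%), with 20.7, 23.7 and 17.5 FPKM in PF, 10.2, 15.1 and 15.8 in AF and, with MNA, 18.4, 25.4 and 28.9. No gene of the lists in these last paragraphs had an adjusted p under 0.05 in limma.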

How the data were processed

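Total liver RNA, depleted of ribosomal RNA, was made into strand-specific libraries and sequenced by the authors. Per the labels, StringTie 1.3.4 and cutadapt 1.9 were used, with HISAT2 and TopHat; the genome build is not given in the sources used here. The deposited gene values are FPKM as made by the authors with StringTie, and are rounded. Known transcripts were looked up by identifier in the GENCODE M21 annotation (GRCm38). Among 30 entries made only of lncRNA transcripts, 29 had a value within 2% of the transcripts' FPKM weighted by length over the joint exon length. The deposited lncRNA table gives FPKM and coverage of single transcripts, and the CPC and CNCI score made by the authors for assembled ones. The authors' circRNA table gives junction counts, 1588 to 2545 per library, and a normalized signal per junction, from whose constant the relative depth came. Precision of gene values was judged from the replicates.

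Named entries with a known transcript, if they averaged 0.5 FPKM or more in the 6 libraries of a comparison, were tested as log2(FPKM + 1) with limma 3.58.1 (lmFit, eBayes with trend; R 4.3.3), two-sided, with Benjamini-Hochberg adjustment over all of them. Log2 differences are log2 ratios of the group mean FPKM. The fit was tested on simulated data. Members and gene lists were chosen with earlier results of these data known. Members named are the 3 highest of each complex, the 10 with the lowest p per comparison, tissue isoforms, and those at 0 or under 10% of the median of the other libraries in a library. Genes of other lists are named where past the threshold of the methods, at most 6 a list. Members of wide spread, non-overlapping members and list genes in counts of 5 or fewer were named after their values were seen. The heat map leaves out 1 member that is not reported here; it stayed in all fits, counts and medians. Pseudogene copies were found with BLAST+ 2.17.0.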

Additional observations from a re-analysis of the deposited data

Results flagged for a closer look

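The 15 rows that carry a member's name but hold only assembled transcripts were used in no comparison. Their summed level was 20.21 FPKM in AF replicate 3, where 12 of the 15 were above 0, against 2.21 to 2.73 FPKM in the PF control libraries, 5.62 and 4.35 FPKM in the other AF libraries and 0 to 4.67 FPKM in AF with MNA. AF replicate 3 also held the highest sum of assembled transcripts inside introns (9433 FPKM), and AF with MNA replicate 1, with 8934 FPKM of those, had 4.67 FPKM in the 15 rows.

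Circular RNAs at member genes gave 7 back-splice junction reads in AF with MNA, 1 in PF and 0 in AF. The shares of all junction reads were 0.109% of 6405 in AF with MNA (95% exact binomial interval 0.0440% to 0.225%), 0.0175% of 5714 in PF (0.000443% to 0.0975%), and 0 of 5840 in AF (0% to 0.0632%). By the separate limit of 3 counts over the total, a count of 0 allows a share of up to 0.0514% there. The interval of AF with MNA overlaps those of PF and AF, and they cover counting error only. The 7 reads came from 5 host genes, Atp5o, Ndufs7, Atp5c1, Ndufs1 and Uqcrc1, with at most 2 reads each, and the PF read from Sdha.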

How the results depend on the processing

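The median log2 difference of the members moved by less than the spread between libraries (SD 0.09) under every alternative. That SD includes the libraries that were left out, so staying under it does not show that the median is stable. With single libraries left out it was -0.10 to 0.03 for AF against PF, 0.08 to 0.21 for AF with MNA against AF and 0.09 to 0.18 for AF with MNA against PF. The median for AF against PF thus changed sign, and that for AF with MNA against AF fell from 0.17 to 0.08 without AF replicate 2. The number of members with an unadjusted p under 0.05 also changed. With single libraries left out it was 1 to 5, 2 to 8 and 2 to 8 in these comparisons, and the number past the threshold of the methods 0 to 1 in each. The genes past it were Ndufa12 (without AF replicate 2 or PF replicate 3), Ndufa6 (without PF replicate 2), Cox8a (without AF with MNA replicate 1) and Cox7a2l (without AF with MNA replicate 2). The count with an adjusted p under 0.05 was 0 in all fits.

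For AF against PF, 4 members had an unadjusted p under 0.05, 2 with a library-size covariate and no moderation (0 of them among the 4), and 2 among the 57 members without a pseudogene copy or another coding gene in the entry, an alternative chosen after seeing the data. With that covariate 633 of the 12268 genes tested were higher and 887 lower at that p. Without a filter on low values 1 member, Cox6b2, passed the threshold of the methods. For AF with MNA against PF, 3 became 5 without a filter on low values, with libraries scaled to the same sum of nuclear genes, with all 9 libraries in the fit and with the covariate, and of these 5 members 1 was lower with all 9 libraries (Cox7a2l) and 1 with the covariate (Ndufa8). At that p, 1070 of all 25063 genes were higher and 1356 lower without the filter. Of 12276 genes, 813 were higher and 889 lower with equal sums, 675 and 807 with all 9 libraries, and 702 and 823 with the covariate. With the covariate, 6 members had an unadjusted p under 0.05 for AF with MNA against AF (2 of them among the 9), and 2 of the 5 against PF were among the 3. There 398 of 12214 genes were higher and 319 lower for AF with MNA against AF. The correlation of deviations was -0.08 to 0.06 for libraries of the same replicate number and -0.12 to 0.10 for different numbers. With 3 libraries per group this cannot settle whether the numbers pair the libraries. With the number as a replicate block, the 9 members for AF with MNA against AF became 5 and the 3 against PF became 6, of which 1 (Atp5sl) was lower, and no other count moved by over 1.5 times. With the block, 351 of 12214 genes were higher and 291 lower at that p for AF with MNA against AF. Against PF, 660 of 12276 were higher and 792 lower. Of the 16 log2 differences of named members with an unadjusted p under 0.05 none changed sign under any alternative. Of the other 89, 33 changed sign under at least 1, the largest of them Cox8a for AF against PF (-0.65, and 0.06 without PF replicate 1). In that comparison Sdhd went from 0.07 to -0.36 without PF replicate 1 and Cox7a2 from 0.10 to -0.24 without AF replicate 1. Pseudocount 0.1, a minimum of 2 FPKM, equal medians, no trend and the model coefficient kept each of these counts within 1.5 times. The ratio of mitochondrial to nuclear genes was not run. The gene table holds no counts, so no limit from sequencing depth is given.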
